A study of Mus musculus with 13 samples.

Results

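The genes described here are 50 genes of G2 and mitosis, named in a list that was drawn up with earlier results of these data known, though no measured value enters the rule, and all 50 were found in the data. They were 50 of the 21950 genes in a bulk table of sorted epidermal basal cells and 50 of the 28693 genes in 4 single-cell matrices of whole epidermis, all from the abdominal skin of C57BL/6 mice. The bulk table held 3 libraries each of K14creERT2;Tbx3flox/flox mice (Tbx3 cKO) at gestation day 16 (dpc16), of wild-type (WT) mice at dpc16 and of WT non-pregnant (NP) mice. In the knockout a tamoxifen-activated Cre is driven by the keratin 14 promoter, which is active in basal keratinocytes, and it removes the floxed gene for the transcription factor TBX3 there. The single-cell data held 1 library per state, from Tbx3creERT2; R26H2B EGFP mice given tamoxifen: NP, dpc16, day 6 post partum (dpp6) and day 40 post partum (dpp40). Bulk and single-cell mice thus differed in genotype as well as in the cells taken, and whether the bulk mice were given tamoxifen was not stated in the labels. The bulk columns headed WT were read as WT dpc16, since the other columns name the knockout and the non-pregnant mice. The ages of the mice, and whether each library came from its own mouse, were not given, and the p-values below measure the spread between these libraries.

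Cells that leave G2 switch on cyclin B with CDK1, condense their chromosomes, attach them to a spindle through kinetochores, wait at the spindle checkpoint and then destroy cyclin B and securin through the anaphase-promoting complex (APC/C) before dividing. Most genes of this programme are transcribed in late S phase, G2 and mitosis and are kept low in resting cells, so that their RNA is widely used to mark dividing cells. In the epidermis division takes place mainly in the basal layer, and abdominal skin has to expand during pregnancy.

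Promoter sequences are shown because many members share a pair of short words that have long been known from cell cycle genes. RefSeq promoter windows (GRCm38.p6, from 250 bases before to 50 bases after the start of transcription) were matched by symbol for 43 of the 50 members. The pentamer CCAAT, or ATTGG on the other strand, stood in 34 of the 43 member windows (79.1%), against 37.9% of the windows of 27025 genes. At least 2 such pentamers stood in 58.1% of the member windows and in 12.2% of all windows. The hexamer TTTGAA, its reverse complement TTCAAA or the palindrome TTCGAA, the letters of the cell cycle genes homology region (CHR), stood in 33 member windows (76.7%), against 19.4% of all windows. Both words stood in 67.4% of the member windows and in 7.70% of all windows. Both strands were searched, neighbouring matches of different words may share a letter at their ends, and a match describes letters only. The following stretches run 5′ to 3′ in the direction of the gene, from 150 bases before the start to the first 30 transcribed bases, with CCAAT or CHR letters in capitals. They are from Ccnb2 (cyclin B2, chr9:70421525-70421704 on the minus strand), Cdk1 (the mitotic kinase, chr10:69352883-69353062 on the minus strand), Cdc20 (an APC/C activator, chr4:118437314-118437493 on the minus strand), Top2a (topoisomerase IIα, chr11:99024160-99024339 on the minus strand), Ccnb1 (cyclin B1, chr13:100786457-100786636 on the minus strand) and Birc5 (survivin, chr11:117849087-117849266 on the plus strand).
Ccnb2: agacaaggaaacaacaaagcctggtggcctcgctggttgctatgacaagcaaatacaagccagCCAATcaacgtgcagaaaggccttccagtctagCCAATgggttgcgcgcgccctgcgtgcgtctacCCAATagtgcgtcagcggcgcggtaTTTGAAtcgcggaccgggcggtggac
Cdk1: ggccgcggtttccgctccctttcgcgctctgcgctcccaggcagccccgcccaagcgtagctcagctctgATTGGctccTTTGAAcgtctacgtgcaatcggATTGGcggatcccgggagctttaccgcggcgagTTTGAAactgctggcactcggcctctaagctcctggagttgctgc
Cdc20: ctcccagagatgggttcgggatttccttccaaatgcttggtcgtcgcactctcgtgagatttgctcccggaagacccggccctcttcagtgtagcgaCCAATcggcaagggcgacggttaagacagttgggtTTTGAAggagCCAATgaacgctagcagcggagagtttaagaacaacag
Top2a: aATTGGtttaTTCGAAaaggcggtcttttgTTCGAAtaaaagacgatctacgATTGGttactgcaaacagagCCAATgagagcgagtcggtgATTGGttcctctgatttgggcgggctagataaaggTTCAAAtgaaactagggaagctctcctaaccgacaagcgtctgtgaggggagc
Ccnb1: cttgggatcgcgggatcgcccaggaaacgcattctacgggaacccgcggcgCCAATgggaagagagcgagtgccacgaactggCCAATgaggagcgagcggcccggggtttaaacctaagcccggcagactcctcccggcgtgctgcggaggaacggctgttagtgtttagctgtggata
Birc5: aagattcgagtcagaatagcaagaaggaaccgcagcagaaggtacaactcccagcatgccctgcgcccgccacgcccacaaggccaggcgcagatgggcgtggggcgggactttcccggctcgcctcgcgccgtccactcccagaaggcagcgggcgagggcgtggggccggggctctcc
Ccnb2, Cdk1, Cdc20 and Top2a carried both words in the printed stretch, Ccnb1 carried CCAAT alone, and neither word was in the Birc5 stretch. Birc5, Nusap1, Nuf2, Tacc3 and Pttg1 had neither word anywhere in their 300 bases.

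The 4 single-cell libraries kept 6491 (NP), 12853 (dpc16), 9031 (dpp6) and 8552 (dpp40) cells, where the study states 6485, 12846, 9029 and 8552, and of these 6095 to 11817 reached the 3000 UMIs used below, and any 2 libraries shared 70 to 147 cell barcodes. Depth of the bulk libraries is unknown, since FPKM keeps none, and the 50 members summed to 1253 to 2115 FPKM in them.

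In single cells the list behaved as its name says, with 1 exception. Each cell was thinned to 3000 UMIs (molecules counted once each) and put in a mitosis class where at least 2 of 36 other mitosis genes, none of them a member, had a UMI. An S class held the remaining cells with at least 5 of 47 DNA replication genes, and all others were the rest. The level of 49 of 50 members was higher in the mitosis class than in the rest in all 4 libraries, and the median member was 53.3 times as high. With 1 library a state, these are descriptions of 4 libraries. The median cell of the mitosis class held UMIs of 17 members in NP, 13 at dpc16, 14 at dpp6 and 17 at dpp40, and the median rest cell held UMIs of 2 members in each library. At least 5 members were seen in 76.7 to 78.6% of the mitosis class and in 5.81 to 6.41% of the rest. The class boundary was not sharp, since 17.6 to 18.2% of cells had exactly 1 of the 36 genes and lay just outside it, while 2.44 to 2.68% had exactly 2 and lay just inside.

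Among cyclins and their kinase, Ccna2 (cyclin A2) averaged 134 CPM (UMI counts scaled to a common total) in the mitosis class and 1.05 in the rest, a ratio of 127 between the means of the 4 libraries. Ccnb1 averaged 192 CPM in the mitosis class and 2.80 in the rest, and Cdk1 averaged 256 CPM in the mitosis class and 3.24 in the rest. The lowest ratio of any library among these genes was 52.0, for Ccnb1. Plk1, the polo-like kinase of mitotic entry, was seen in 366 UMIs in the mitosis class and in 48 UMIs in the far larger rest. Kif2c, a kinesin that takes microtubules apart at the centromere, had the highest ratio at 138, and this rested on 296 UMIs in the mitosis class and 23 in the rest. Nusap1, a spindle-associated protein, had the third highest ratio at 118. Bub1, a checkpoint kinase, was the sparsest of the lead genes with 111 UMIs in the mitosis class and 12 in the rest.

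Chromatin genes stood out less from the rest, with a median ratio of 10.7 over their 7 members, against 64.1 over the 10 cyclin and kinase members and 62.4 over the 11 kinetochore and checkpoint members. Hmgb2, a DNA-bending chromatin protein, averaged 1946 CPM in the mitosis class and 182 in the rest, where 40.1% of cells still had a UMI of it. Stmn1 (stathmin, a microtubule-destabilising protein) averaged 1915 CPM in the mitosis class and 175 in the rest. Mki67 (GRCm38.p6 chr7:135689784-135716450), the usual proliferation marker, averaged 156 CPM in the mitosis class and 3.35 in the rest, and 31.5% of mitosis class cells and 0.978% of rest cells had a UMI. Lbr and Tmpo, which encode proteins of the inner nuclear membrane and lamina, were 4.56 and 4.62 times as high in the mitosis class as in the rest.

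The exception was Pttg1 (GRCm38.p6 chr11:43420244-43427463), which encodes securin, the inhibitor of the protease that separates sister chromatids. It stood at 56.9 to 69.4 CPM in the mitosis class, 44.1 to 50.7 in the S class and 49.7 to 60.3 in the rest, and at dpp6 it was lower in the mitosis class than in the rest (56.9 against 60.3). Even in granular-like cells, the outermost living layer, rest cells had 41.0 to 57.1 CPM of Pttg1. Tubb4b (chr2:25222158-25224702), a β-tubulin of microtubules in many cell types, came next with a ratio of 2.51: it averaged 1256.5 CPM in the mitosis class and 500.3 in the rest. Ckap5, a microtubule polymerase, followed with a ratio of 4.33. Tubb4b alone made up 10.2% of all member UMIs in the mitosis class and 42.0% in the rest. Its coding sequence is close to those of other β-tubulin genes, and how the counting treated shared reads was not given.

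The share of cells with a UMI can be read against granular-like cells, which have left the cell cycle. Of the rest cells of that type, 0 of 187 had a Mki67 UMI in NP and 0 of 144 at dpc16, which allows shares of up to about 1.60% and 2.08%. These limits are 3 divided by the number of cells, and not exact intervals as those that follow. At dpp6 and dpp40 the shares were 0.709% (exact interval 0.018 to 3.89) and 0.685% (0.0831 to 2.45), at the same 3000 UMIs a cell. The 0.837 to 1.19% of all rest cells with a Mki67 UMI can be set beside these, but so few granular-like cells leave intervals too wide to tell background from expression of Mki67 in the rest. Member levels in the S class were a median of 5.56% of those in the mitosis class, with Cdk1 at 9.82%, Top2a at 12.8% and Stmn1 at 33.2%.

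**Figure D1:**
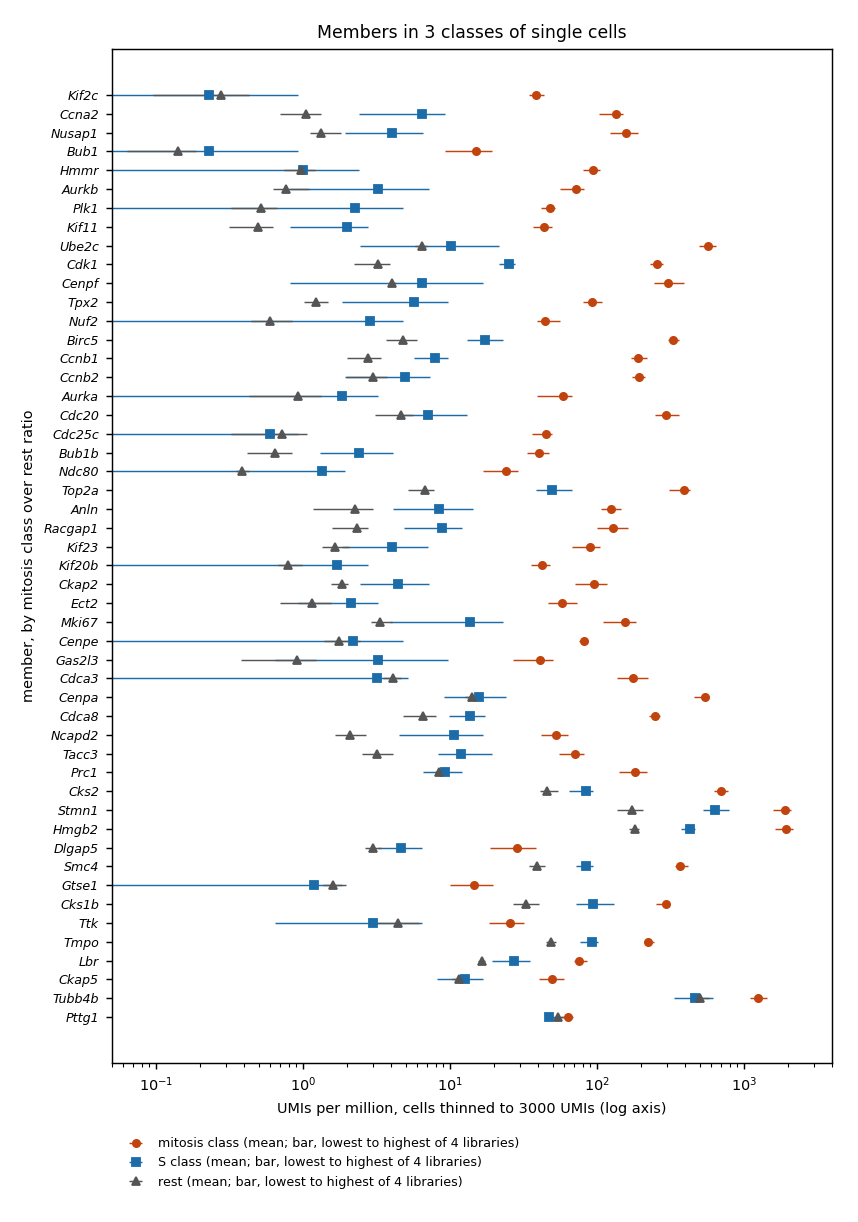
Level of each of the 50 members in CPM (log axis) in cells of the mitosis class, the S class and the rest, as the mean of 4 libraries with a bar from the lowest to the highest library. A bar that runs off the left edge ends at 0. Members are ordered by the ratio between mitosis class and rest, which runs from 138 for Kif2c at the top to 1.18 for Pttg1 at the bottom.

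Next, the members were compared between states. Summed over the 50 members, the whole library held 2348 CPM in NP, 1992 at dpc16, 2269 at dpp6 and 2464 at dpp40. The dpc16 library was the lowest of the 4 for 43 of 50 members. Set against NP, 46 of 50 members were lower at dpc16, all 46 with 95% Poisson intervals that did not overlap, and the median log2 ratio was -0.58. Those intervals cover counting error within 1 library each, and no test between states is possible.

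Mki67 had 19.7 CPM in NP, 11.3 at dpc16, 19.0 at dpp6 and 17.5 at dpp40. Cenpf, a kinetochore protein of G2 and mitosis, had 39.0, 22.3, 28.8 and 30.5 CPM in the same order of states, and Top2a had 48.8, 31.7, 43.6 and 43.6. The dpc16 library was the lowest of the 4 for all of these. Ccnb1 had 21.4, 16.2, 19.5 and 24.8 CPM in NP, dpc16, dpp6 and dpp40, and Cdc20, which activates the APC/C, had 32.8, 22.8, 28.2 and 39.3. For these, dpp40 was the highest, which held for 26 of 50 members. The dpp40 library also held no cell under 3000 UMIs, against 6.10 to 10.5% of cells in the others. In cells thinned to 3000 UMIs, the 50 members summed to 2226 CPM in NP, 1938 at dpc16, 2045 at dpp6 and 2262 at dpp40. Anln (anillin, of the cleavage furrow) was lowest at dpp6, with 10.2 CPM against 11.01 at dpc16, and the intervals of these values overlapped (9.41 to 11.1 and 10.3 to 11.8).

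Tubb4b was higher at dpc16 than in NP, with 648 and 551 CPM, and was the single member to be higher with intervals apart. Pttg1, Lbr and Tmpo, the other members that were not lower, differed by log2 ratios of 0.03 to 0.04. These 4 genes are among the 5 with the lowest ratio between mitosis class and rest.

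The mitosis class held 8.43% of cells in NP (95% Clopper-Pearson interval 7.75 to 9.16), 6.71% at dpc16 (6.27 to 7.18), 7.17% at dpp6 (6.62 to 7.76) and 7.92% at dpp40 (7.35 to 8.51). Without thinning, the shares were 14.3%, 11.7%, 12.9% and 16.2% of cells in the same order of states, lowest at dpc16 as well and highest at dpp40, the deepest library. The S class had another order, with 2.26%, 4.34%, 4.48% and 4.77% of cells in NP, dpc16, dpp6 and dpp40. Within the mitosis class the 50 members summed to 13467 CPM in NP, 10786 at dpc16, 12213 at dpp6 and 13539 at dpp40. In that class 49 of 50 members were lower at dpc16 than in NP, with a median ratio of 0.787, and in the rest 34 of 50 were lower, with a median ratio of 0.883. The lower library level at dpc16 went with a smaller share of cells in the class and with a lower mean member level over the class. Whether the cells that passed the cut were of the same kinds in each library enters that mean and was not tested. Median depth before thinning was 4709 UMIs a cell in NP, 4448 at dpc16, 5014 at dpp6 and 5638 at dpp40, and the part of depth in these levels was not tested.

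The mitosis class was spread over several clusters. Clustering without the members and without the other mitosis, replication and histone genes that were listed still gave 1 cluster whose leading genes were members (Ube2c, Cdc20, Cenpf, Cenpa, Cdk1, Birc5, Top2a, Ccnb1 and Nusap1 among its top 10). It held 51.9%, 47.5%, 37.4% and 52.4% of the mitosis class in NP, dpc16, dpp6 and dpp40, and 90.4 to 94.7% of its cells were in that class. Its keratin 14 levels (6098, 8079, 6210 and 7565 CPM) lay below those of basal-like rest cells (6833, 8841.5, 9819 and 9590) and above the 1410 to 2284 of spinous-like rest cells, while its keratin 10 levels (549 to 963) were far under the 13549 to 15822 of spinous-like rest cells. Keratin 14 marks basal keratinocytes and keratin 10 the spinous layer above them. A further 22.7% of the mitosis class at dpc16, and 8.97 to 10.8% in the other libraries, lay in basal-like clusters. These clusters held 41.9% of all cells at dpc16 and 20.4 to 26.9% in the other libraries. Spinous-like clusters held 12.5%, 6.94%, 4.83% and 8.57% of the mitosis class in NP, dpc16, dpp6 and dpp40. Unnamed clusters held 9.92%, 7.57%, 14.1% and 9.01% in the same order of states. Of spinous-like cells, 5.27% in NP and 3.97% at dpp40 were in the class, above the 4.11% and 3.17% of basal-like cells. At dpc16 and dpp6 the share was higher among basal-like cells. The basal-like cells were made up differently between libraries: clusters 1 and 5 held most of them at dpc16 (2273 and 2067 cells), while cluster 4, with 137 cells at dpc16, was the largest of them in the other libraries (655 to 965 cells), beside clusters 1 (326 to 741) and 6 (213 to 557). The immediate early gene Fos was among the leading genes of cluster 1.

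Among the other clusters, 6.39% of bulge and outer root sheath-like cells at dpp6 were in the mitosis class (5.34 to 7.58), against 2.54% in NP, 2.79% at dpc16 and 3.40% at dpp40. These cells made up 21.2% of the mitosis class at dpp6 and 2.90% at dpc16, and most of them were in cluster 3 at dpp6 (1379 cells) and in clusters 16 and 3 at dpc16 (355 and 281 cells). Of the T cell-like cells, 11.1 to 15.8% were in the class in the 4 libraries, with 45 to 119 such cells in each. The share was 8.99 to 14.3% among sebaceous-like cells and 0.685 to 2.08% among granular-like cells. Marker levels of other cell types inside the mitosis class moved between libraries, with Langerhans and myeloid markers summed to 369, 1201, 930 and 321 CPM in NP, dpc16, dpp6 and dpp40. Their part in the lower member levels at dpc16 was not tested.

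In sorted bulk basal cells (CD49f-positive and CD34-negative), no member changed past an adjusted p of 0.05 in any of the 3 comparisons. Values are FPKM, fragment counts scaled to gene length and library size, and tests used limma with Benjamini-Hochberg adjustment over 11497 genes on log2(FPKM + 1), a scale on which low genes change less than their FPKM do. All 50 members passed the filter of a mean of 1 FPKM over the 9 libraries. Tbx3 itself had 4.81, 1.65 and 4.89 FPKM in Tbx3 cKO dpc16, 17.0, 15.3 and 23.0 FPKM in WT dpc16 and 8.96, 6.38 and 8.12 FPKM in NP libraries, lowest in the 3 Tbx3 cKO libraries as labelled. Of the genes sorted on, Itga6 (CD49f) stood at 277 to 443 FPKM and Cd34 at 0 to 2.23 FPKM. In WT dpc16 against WT NP libraries 0 of 50 members were called, against 0.13% of all genes, 12 of them higher (0.104%) and 3 lower (0.0261%). Of the members, 49 had a log2 difference below 0 (53.9% of all genes did), with a median of -0.60 against -0.03 over all genes. At an unadjusted p under 0.05 stood 5 members, all lower (Kif23, Gas2l3, Stmn1, Tmpo and Ncapd2), against 9.05% of all genes, 3.71% higher and 5.33% lower. The groups did not overlap for 4 members, Gas2l3, Gtse1, Kif23 and Tmpo, all lower, or 8.0% of the members, against 8.77% of all genes lower and 6.82% higher without overlap. In bulk, fewer dividing cells and less of this RNA in each of them cannot be told apart.

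Within each group the bulk libraries were spread in a way that most members shared. WT dpc16 library 3 was the highest of its group for 47 of 50 members, with a median ratio of 3.74 between the highest and the lowest library of the group. Tbx3 cKO library 3 was the highest of its group for 38 members (median ratio 2.45), and NP library 3 the lowest of its group for 41 (median ratio 1.99). Libraries are numbered as their columns are, and no source used here says what a shared number marks.

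**Figure D2:**
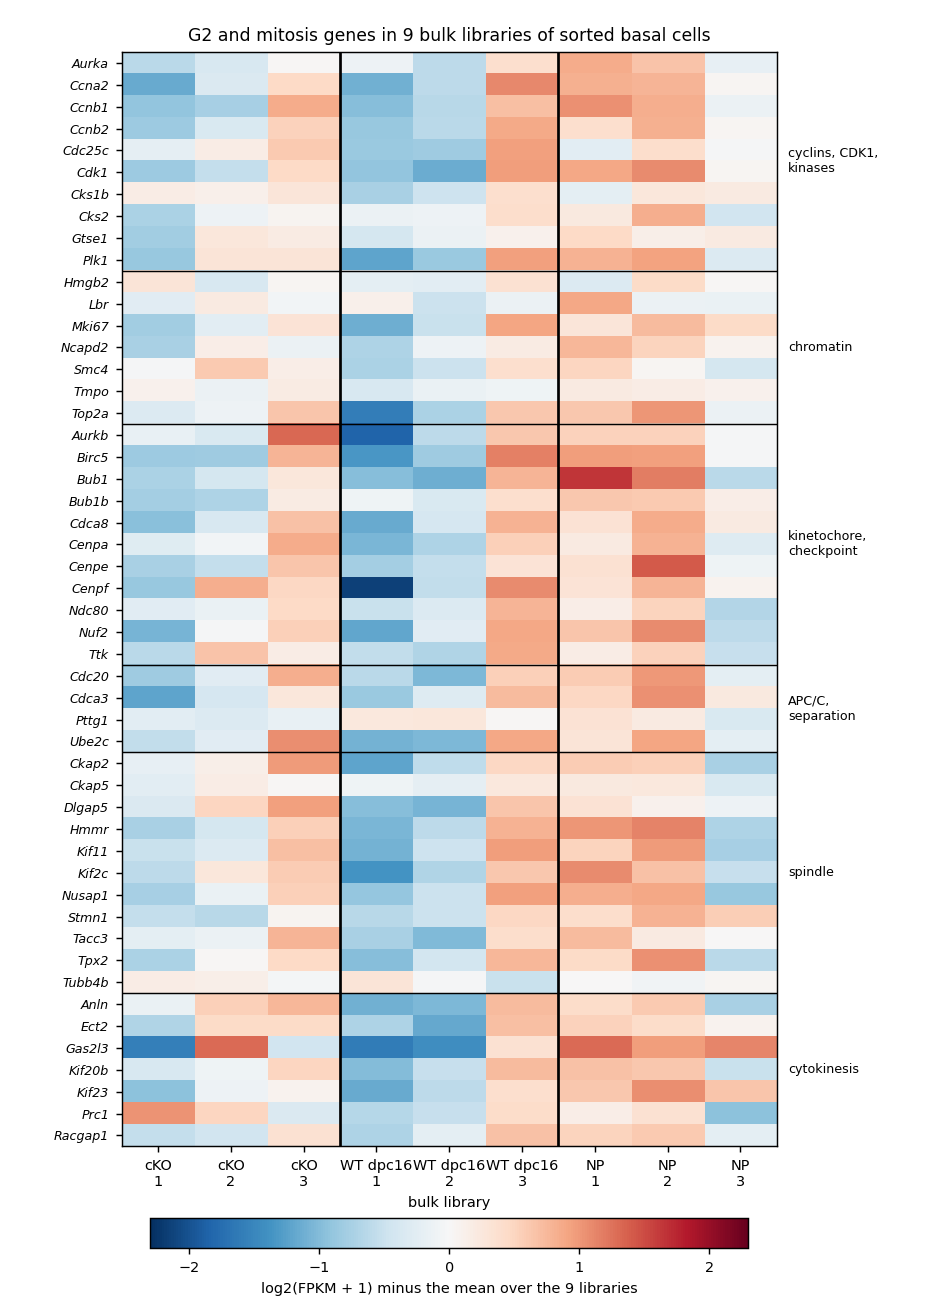
The 50 members (rows, in 6 roles) in the 9 bulk libraries (columns: Tbx3 cKO dpc16, WT dpc16, WT NP), coloured by log2(FPKM + 1) minus the member's mean over the 9 libraries. WT dpc16 libraries 1 and 2 are low and library 3 is high for nearly all rows, with Pttg1 and Tubb4b as rows that go against this.

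Among the cyclins and their kinases, Ccnb1 had 4.84, 5.41 and 18.8 FPKM in Tbx3 cKO dpc16, 4.50, 6.01 and 16.6 FPKM in WT dpc16 and 21.5, 18.4 and 8.98 FPKM in NP libraries. Cdk1 had 18.0, 22.2 and 45.8 FPKM in Tbx3 cKO dpc16, 17.2, 14.5 and 65.0 FPKM in WT dpc16 and 62.2, 71.4 and 34.0 FPKM in NP libraries. Plk1 had 2.18, 6.15 and 6.11 FPKM in Tbx3 cKO dpc16, 1.502, 2.19 and 10.1 FPKM in WT dpc16 and 9.05, 10.0 and 3.68 FPKM in NP libraries. For all of these, 2 WT dpc16 libraries lay below every NP library. The third lay between NP values for Ccnb1 and Cdk1 and just above all NP values for Plk1, so the groups overlapped. The log2 differences, WT dpc16 minus NP, were -0.89 ± 0.55 for Ccnb1, -1.03 ± 0.54 for Cdk1 and -0.85 ± 0.57 for Plk1 (SE), with limma adjusted p of 0.683, 0.622 and 0.718. All 10 members of this role were below 0, and Gtse1, a microtubule-associated protein of G2, was lower in WT dpc16 (3.81, 4.85 and 5.82 FPKM) than in NP (7.83, 6.02 and 6.41 FPKM) without overlap.

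Of the chromatin genes, Mki67 had 5.80, 9.11 and 13.8 FPKM in Tbx3 cKO dpc16, 4.49, 7.39 and 21.4 FPKM in WT dpc16 and 13.4, 18.8 and 15.1 FPKM in NP libraries. Top2a, which untangles DNA before chromosomes part, had 28.7, 33.2 and 56.7 FPKM in Tbx3 cKO dpc16, 11.4, 21.3 and 55.6 FPKM in WT dpc16 and 55.7, 73.3 and 32.8 FPKM in NP libraries. Hmgb2 had 101, 63.5 and 84.9 FPKM in Tbx3 cKO dpc16, 70.2, 68.9 and 105 FPKM in WT dpc16 and 65.7, 112 and 83.3 FPKM in NP libraries. WT dpc16 library 3 held the highest Mki67 of all 9 libraries, and Hmgb2 showed no order between the groups. WT dpc16 minus NP log2 differences were -0.72 ± 0.46 for Mki67, -1.06 ± 0.51 for Top2a and -0.09 ± 0.25 for Hmgb2 (SE; limma adjusted p 0.702, 0.583 and 0.953). Tmpo had 52.0, 60.7 and 63.1 FPKM in WT dpc16, below all 3 NP libraries with 78.2, 76.5 and 73.1, and Ncapd2, a condensin subunit, was lower at an unadjusted p of 0.0479 (limma adjusted p 0.545).

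At the kinetochore, Cenpf had 3.48, 13.7 and 10.4 FPKM in Tbx3 cKO dpc16, 0.852, 4.53 and 16.5 FPKM in WT dpc16 and 9.22, 13.02 and 7.65 FPKM in NP libraries. Aurkb, the kinase that corrects wrong attachments, had 7.26, 6.25 and 22.1 FPKM in Tbx3 cKO dpc16, 1.57, 5.10 and 13.2 FPKM in WT dpc16 and 12.3, 12.5 and 8.16 FPKM in NP libraries. Birc5, its partner in the chromosomal passenger complex, had 5.95, 6.08 and 20.3 FPKM in Tbx3 cKO dpc16, 3.95, 6.10 and 26.9 FPKM in WT dpc16 and 23.2, 23.0 and 11.2 FPKM in NP libraries. Each ran in WT dpc16 from below to above the NP values. Their WT dpc16 minus NP log2 differences were -0.93 ± 0.70 for Cenpf, -0.96 ± 0.59 for Aurkb and -0.95 ± 0.64 for Birc5 (SE, limma adjusted p 0.753, 0.682 and 0.717). Bub1 was near the floor of the table in several libraries, with 0.680, 1.11 and 2.34 FPKM in Tbx3 cKO dpc16, 0.425, 0.281 and 3.81 FPKM in WT dpc16 and 7.72, 5.31 and 0.810 FPKM in NP libraries. Over the role, differences ran from -1.17 ± 0.65 for Bub1 to -0.02 ± 0.42 for Ndc80 (SE), and all 11 members of this role were below 0 with limma adjusted p of 0.633 or higher.

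Of the genes that end mitosis, Cdc20 had 12.1, 18.3 and 40.4 FPKM in Tbx3 cKO dpc16, 14.1, 10.3 and 32.9 FPKM in WT dpc16 and 34.0, 45.5 and 18.8 FPKM in NP libraries. Ube2c, the ubiquitin-conjugating enzyme of the APC/C, had 18.0, 22.6 and 58.0 FPKM in Tbx3 cKO dpc16, 12.3, 12.8 and 50.9 FPKM in WT dpc16 and 33.4, 52.0 and 23.1 FPKM in NP libraries. Library 3 was the highest in Tbx3 cKO and in WT dpc16 and the lowest in NP for both, and the WT dpc16 minus NP log2 differences were -0.82 ± 0.50 for Cdc20 and -0.74 ± 0.57 for Ube2c (SE, limma adjusted p 0.679 and 0.758). Pttg1 had 36.9, 35.2 and 38.7 FPKM in Tbx3 cKO dpc16, 52.2, 53.0 and 44.4 FPKM in WT dpc16 and 55.2, 50.8 and 34.2 FPKM in NP libraries. WT dpc16 library 3 was here the lowest of its group, and Pttg1 was the single member with a positive WT dpc16 minus NP log2 difference, 0.12 ± 0.19 (SE, limma adjusted p 0.907).

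Of the spindle genes, Tpx2, which activates Aurora A on microtubules, had 4.54, 8.33 and 11.6 FPKM in Tbx3 cKO dpc16, 3.62, 5.82 and 14.5 FPKM in WT dpc16 and 11.5, 18.0 and 4.94 FPKM in NP libraries. Stmn1 had 85.1, 79.8 and 130 FPKM in Tbx3 cKO dpc16, 79.3, 87.9 and 174 FPKM in WT dpc16 and 164, 218 and 185 FPKM in NP libraries. Stmn1 in NP was above all Tbx3 cKO libraries and above WT dpc16 libraries 1 and 2, and WT dpc16 library 3 fell between the NP values. WT dpc16 minus NP log2 differences were -0.81 ± 0.29 for Stmn1, -0.51 ± 0.52 for Tpx2 and -0.06 ± 0.22 for Ckap5, among the members nearest to 0 (SE, limma adjusted p 0.396, 0.827 and 0.963). Tubb4b ran the other way, with 644, 622 and 552 FPKM in Tbx3 cKO dpc16, 702, 556 and 400 FPKM in WT dpc16 and 575, 541 and 584 FPKM in NP libraries, so that WT dpc16 library 3 was its lowest value of all 9.

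Of the cytokinesis genes, Kif23 (GRCm38.p6 chr9:61917277-61946810), a kinesin of the central spindle, had 21.1, 38.6 and 44.0 FPKM in Tbx3 cKO dpc16, 18.2, 27.3 and 54.8 FPKM in WT dpc16 and 64.8, 88.8 and 65.5 FPKM in NP libraries. All 3 NP libraries lay above all 6 dpc16 libraries. Its WT dpc16 minus NP log2 difference was -1.23 ± 0.38 (SE) with a limma adjusted p of 0.321, the smallest of the 50 members. Gas2l3 (chr10:89408822-89443980), a cytoskeletal linker of the midbody, had 0.706, 11.6 and 2.76 FPKM in Tbx3 cKO dpc16, 0.669, 0.890 and 5.49 FPKM in WT dpc16 and 11.6, 8.92 and 10.1 FPKM in NP libraries. All WT dpc16 libraries lay below all NP libraries, and the log2 difference was the lowest of the list at -2.03 ± 0.69 (SE, limma adjusted p 0.373). Anln had 19.8, 32.7 and 38.1 FPKM in Tbx3 cKO dpc16, 9.72, 10.4 and 37.1 FPKM in WT dpc16 and 30.0, 34.0 and 12.7 FPKM in NP libraries, and the groups overlapped (WT dpc16 minus NP -0.56 ± 0.51 on the log2 scale, SE, limma adjusted p 0.799).

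How far the WT groups stood apart depended on single libraries. When WT dpc16 library 3 was left out, 33 of 50 members were at an unadjusted p under 0.05, among 1162 of 11513 genes. Then 48 members were below 0, the median log2 difference was -1.12, and still 0 members were called. Without WT dpc16 library 1 the median was -0.29. These were the lowest and the highest median with 1 library left out, around -0.60 with all 9. WT dpc16 library 3 also had the highest spinous marker sum, 15427 FPKM over 7 genes, against 6025 and 6810 FPKM in WT dpc16 libraries 1 and 2, and upper follicle markers at 405 FPKM against 888 and 804. NP library 3, the low NP library, had an upper follicle sum of 3335 FPKM against 684 and 856 FPKM in NP libraries 1 and 2. Marker sums of T cells (0.334 to 8.49 FPKM), melanocytes (1.33 to 3.40) and fibroblasts (0.234 to 9.86) stayed low in all 9 libraries, and those of Langerhans and myeloid cells were 28.5 to 93.8 and of sebaceous cells 66.9 to 146. Smooth muscle and pericyte markers summed to 1.64 to 2.25 FPKM in WT dpc16, against 6.97 to 10.5 FPKM in NP, and Acta2 among them fell by 1.81 on the log2 scale (limma adjusted p 0.0347). Acta2 and Tagln made up nearly all of this sum. Myh11 and Pdgfrb were at or near 0 in both groups, and Rgs5 went the other way, with 0.0447 to 0.346 FPKM in WT dpc16 and 0 in NP. The part of these markers in the member levels was not tested.

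In Tbx3 cKO against WT dpc16 libraries, 0 of 50 members were called, against 2.15% of all genes, of which 1.23% were higher and 0.922% lower. Of the members, 39 had a log2 difference above 0, with a median of 0.13 against 0.01 over all genes. That direction rested on single libraries: the median was 0.63 without WT dpc16 library 3, -0.11 without WT dpc16 library 1 and -0.08 without Tbx3 cKO library 3. The highest log2 differences, Tbx3 cKO minus WT dpc16, were those of Aurkb (0.88 ± 0.59), Anln (0.85 ± 0.51) and Dlgap5, a spindle protein (0.83 ± 0.45), with limma adjusted p of 0.488, 0.430 and 0.381. The lowest were those of Pttg1 (-0.42 ± 0.19), Bub1b, the checkpoint protein BUBR1 (-0.41 ± 0.30), and Cks2, a CDK1-binding subunit (-0.31 ± 0.32), with limma adjusted p of 0.284, 0.529 and 0.676. Pttg1 was the sole member with groups that did not overlap (2.0% of members, against 12.9% of all genes lower without overlap) and the sole member at an unadjusted p under 0.05 (17.4% of all genes, 9.19% higher and 8.24% lower).

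The Tbx3 cKO libraries also held less of the spinous markers, at 3632, 4119 and 5416 FPKM, against 6025, 6810 and 15427 FPKM in WT dpc16 libraries, and keratin 1, Krt1, fell there against WT dpc16 by 2.51 on the log2 scale (limma adjusted p 0.00943). Its part in the member levels was not tested.

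**Figure D3:**
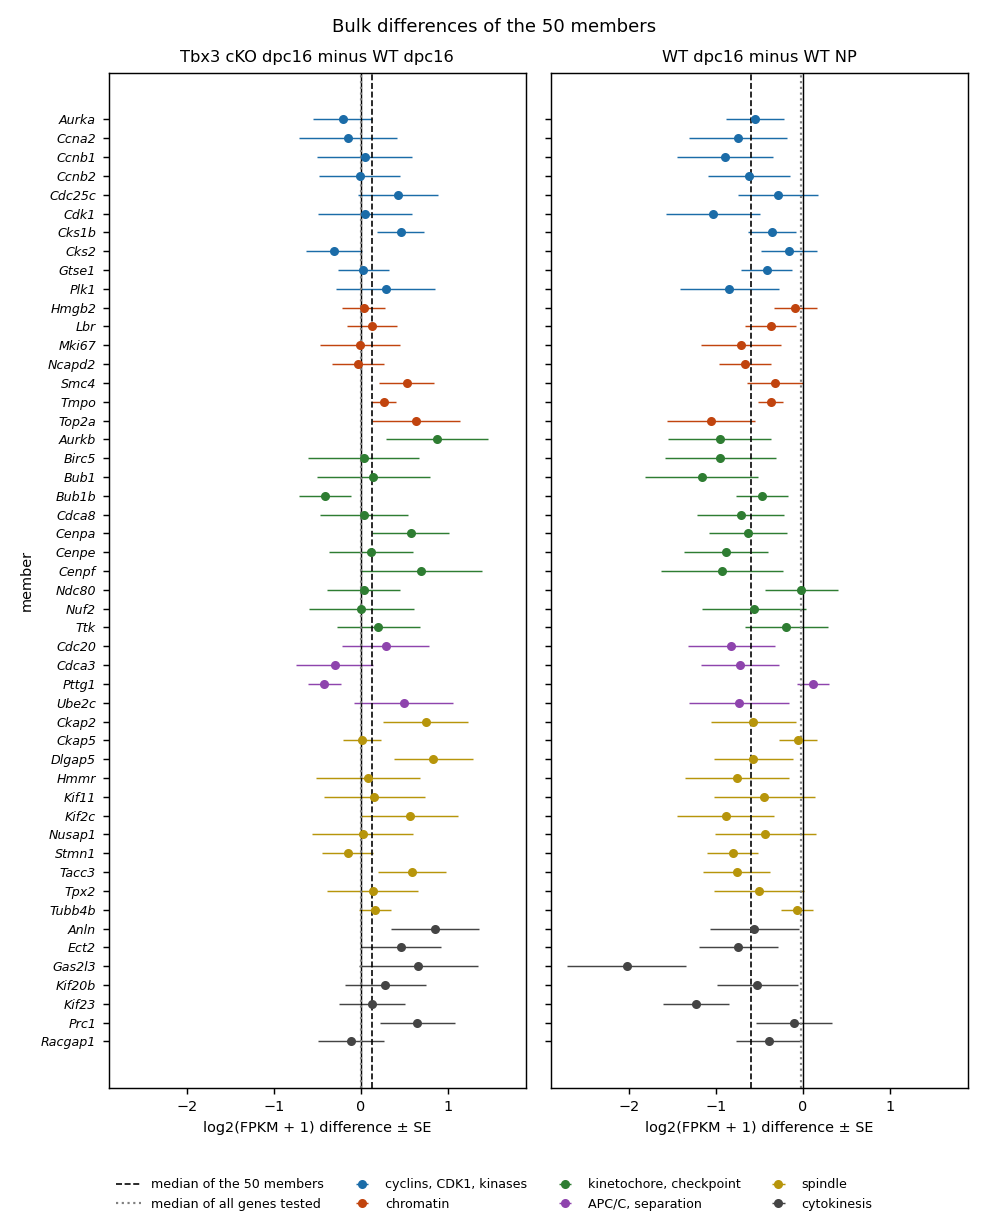
Difference in log2(FPKM + 1) with its SE for each member, coloured by role, for Tbx3 cKO dpc16 minus WT dpc16 (left) and WT dpc16 minus WT NP (right). The dashed line is the median of the 50 members (0.13 on the left, -0.60 on the right) and the dotted line that of all genes tested (0.01 and -0.03).

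Against NP, the Tbx3 cKO libraries had 0 called members as well, against 5.66% of all genes. Of the members, 40 were below 0 (51.6% of all genes were), with a median of -0.38 against -0.02 over all genes, and 6 were at an unadjusted p under 0.05 (Kif23, Stmn1, Bub1b, Ncapd2, Cdca3 and Aurka, all lower), against 23.8% of all genes. The smallest limma adjusted p was 0.0829, for Stmn1, with a log2 difference of -0.96 ± 0.29 (SE). Gas2l3 (-1.37 ± 0.69), Kif23 (-1.10 ± 0.38) and Cdca3, an adaptor for mitotic protein destruction (-1.03 ± 0.45), were lowest, with limma adjusted p of 0.260, 0.114 and 0.196. Prc1, which bundles central spindle microtubules, was highest at 0.55 ± 0.43, followed by Anln at 0.29 ± 0.51 and Dlgap5 at 0.26 ± 0.45 (SE, limma adjusted p 0.485, 0.777 and 0.773). The groups did not overlap for Kif23 and Stmn1, both lower, or 4.0% of members, against 14.2% of all genes lower and 12.2% higher without overlap. Leaving out WT dpc16 library 3, which enters the shared estimate of spread, gave Stmn1 an adjusted p of 0.0347, and leaving out Tbx3 cKO library 3 gave Bub1b one of 0.0340. This comparison shares its NP libraries with WT dpc16 against NP.

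Other cell cycle genes were read from lists made for these data. In WT dpc16 against NP libraries, of the 35 tested genes among the other mitosis genes, 0 were called, 32 were below 0 and the median log2 difference was -0.53. Of 46 replication genes, 0 were called, 43 were below 0 (53.9% of all genes were), the median was -0.54, and 21 had groups without overlap, all lower, against 8.77% of all genes lower without overlap. In Tbx3 cKO against NP libraries 6 of the 46 replication genes fell, against 2.91% of all genes in that direction (limma adjusted p 0.00693 to 0.0435), among them Mcm3 (-1.17), Uhrf1 (-1.67) and Mcm5 (-1.46). So did E2f2 (-2.09), Ccne1 (-1.58) and Cdk4 (-0.63) of 27 genes listed for G1 and its brakes (limma adjusted p 0.0119, 0.0185 and 0.0278). That list also held Cdh1, the mouse gene of the adhesion protein E-cadherin. In the same comparison the spinous markers Krt1, Krt10 and Dmkn also fell (limma adjusted p 0.00671, 0.0304 and 0.0238), as did Acta2 (limma adjusted p 0.00373). The basal keratin Krt14 fell too (limma adjusted p 0.0490), while of the 8 basal markers 4 were above 0 and 4 below. The spinous sum was 3632, 4119 and 5416 FPKM in Tbx3 cKO dpc16, against 10458, 10999 and 9010 FPKM in NP. The part of these markers in these levels was not tested. Mcm3 and Mcm5 encode subunits of the replicative helicase. In single cells the replication list summed to 538 CPM in NP and to 616 at dpc16, 721 at dpp6 and 641 at dpp40, so it was not lowest at dpc16 there, while the list of other mitosis genes was, with 267, 187, 245 and 264.

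Finally, the sorted bulk cells were set beside the classes of single cells. Scales differ, since FPKM divides by gene length and UMIs are counted at the 3′ end, so that a gene's place between the classes depends on both scales and is a description. With each bulk library's FPKM rescaled to the same total as CPM, the 9-library mean lay above the rest and below the mitosis class for 46 of 50 members. The 4 exceptions, Hmgb2, Stmn1, Cks1b and Ttk, were at or below their rest level in bulk, Hmgb2 at 103 rescaled FPKM against 182 CPM in the rest.

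Over 48 members without Tubb4b and Pttg1, bulk libraries held 884, 1067 and 1484 rescaled FPKM in Tbx3 cKO dpc16, 699, 816 and 1731 in WT dpc16 and 1633, 1851 and 1124 in NP. Among the bulk libraries, WT dpc16 library 1 was the lowest and NP library 2 the highest. In single cells, on their own scale, the same 48 genes held 9476 to 12163 CPM in the mitosis class and 624 to 716 in basal-like rest cells. Over basal-like cells plus the cluster led by members, they held 4185 CPM in NP, 1826 at dpc16, 2743 at dpp6 and 3253 at dpp40, lowest at dpc16. That cluster made up 282 of these 1523 cells in NP, 412 of 5365 at dpc16, 240 of 2014 at dpp6 and 387 of 2691 at dpp40. Over all cells the 48 genes held 1681 CPM in NP, 1258 at dpc16, 1466 at dpp6 and 1619.5 at dpp40. The cluster led by members also held more follicle marker RNA than basal-like rest cells, and the part of the cell mix in these sums was not tested. Sums on the 2 scales were not compared with each other.

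**Figure D4:**
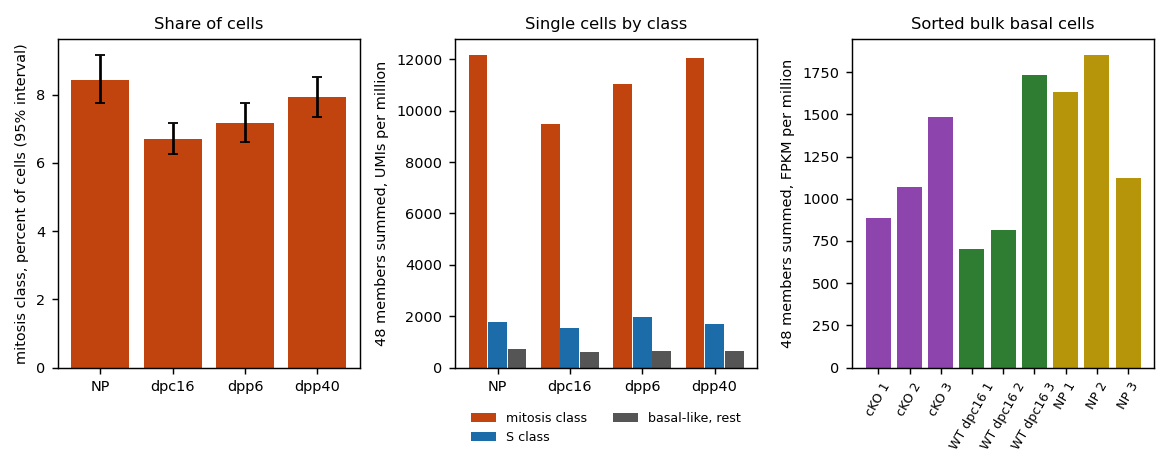
Left, percent of cells in the mitosis class per single-cell library, with 95% intervals for counting error. Middle, 48 members summed in CPM in the mitosis class, the S class and basal-like rest cells. Right, the same 48 members in rescaled FPKM in each bulk library, from 699 in WT dpc16 library 1 to 1851 in NP library 2.

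Members with a high ratio between cell classes tended to differ more between WT dpc16 bulk libraries. The ratio of WT dpc16 library 3 to the mean of libraries 1 and 2 was 10.8 for Bub1, 6.14 for Cenpf, 5.35 for Birc5, 3.59 for Mki67, 1.51 for Hmgb2, 1.12 for Tmpo, 1.02 for Lbr, 0.844 for Pttg1 and 0.636 for Tubb4b. Across the 50 members, this ratio and the single-cell ratio between mitosis class and rest had a Spearman rho of 0.73, and of 0.63 over the 45 members without the 5 lowest single-cell ratios. The bulk log2 difference between WT dpc16 and NP had a rho of -0.55 with the single-cell ratio. Log2 ratios of dpc16 to NP in single cells and in bulk had a rho of 0.28. These are descriptions over members that share the same libraries and are not independent, and low FPKM values, as those of Bub1, make a high ratio easier to reach. Library 3 was set against libraries 1 and 2 after the values of these same members were seen. No rho over all genes was computed, so the values of rho cannot be read as particular to the members.

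**Figure D5:**
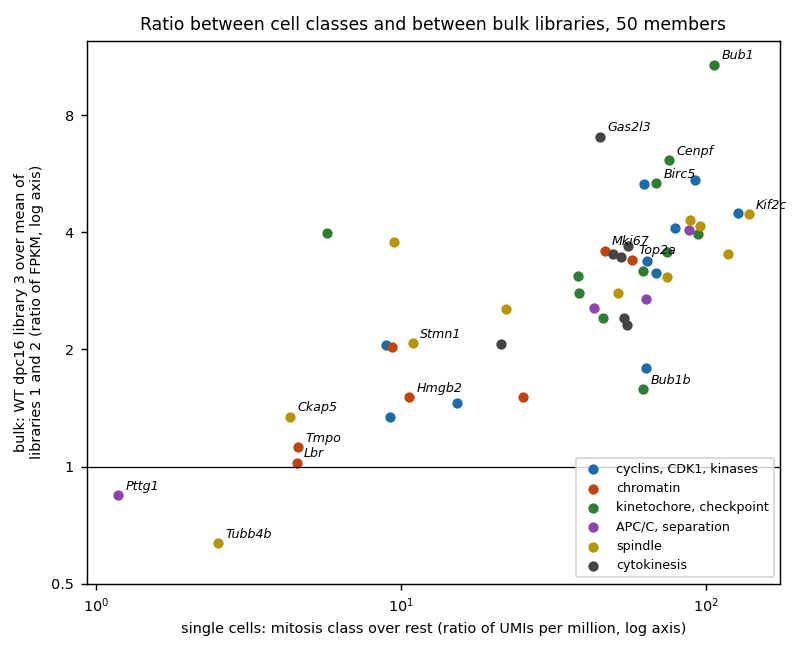
Each point is a member, coloured by role; the x axis is its mitosis class over rest ratio in single cells and the y axis the FPKM ratio of WT dpc16 library 3 to the mean of libraries 1 and 2 (both log axes). Pttg1 and Tubb4b lie below 1 on the y axis and have the 2 lowest ratios on the x axis, while Bub1 has the highest y value at 10.8.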

How the data were processed

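Bulk RNA of sorted CD49f-positive, CD34-negative interfollicular cells (9 libraries) and unsorted single epidermal cells (4 libraries, 10x Chromium v2, 3′) were measured. The authors deposited bulk FPKM values, and the submitters' processing notes name mm10, cutadapt 1.14, TopHat2 2.2.1, Cufflinks 2.2.1 and Cuffdiff without their order or settings. The deposited single-cell values are UMI counts per gene and cell, with Cell Ranger 2.2.0 named in the same notes. Table columns headed WT were taken as WT dpc16 because the other columns name the knockout and the non-pregnant group.

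The members and all gene lists were chosen with earlier results of these data known. Bulk values were tested as log2(FPKM + 1) with limma 3.58.1 (R 4.3.3, trended variance) on 9 libraries in 3 groups, over the 11497 genes that averaged 1 FPKM or more, with Benjamini-Hochberg adjustment at 0.05. FPKM are not counts, so no count model was used. Cells needed 200 genes and at most 10% mitochondrial UMIs. Classes and shares used cells thinned to 3000 UMIs, while levels per library used all UMIs. Levels are CPM computed from the deposited counts. Clusters came from scanpy 1.11.5 (Leiden resolution 1, 2000 variable genes without members, other mitosis, replication and histone genes, 30 components). A cluster was called "-like" where a marker list had at least 3 detected genes and a mean log2 fold of 0.5, limits set after the values were seen. No doublet caller was run, and leaving out the 5% of cells with most UMIs was an alternative. Intervals are 95% Poisson for counts and Clopper-Pearson for shares, and cover counting error only. Genes named in full are 16 lead genes and, per comparison, the 3 highest and 3 lowest members; Tmpo, Gtse1, Ncapd2, Tubb4b, Lbr and Ccna2 beyond these were chosen after their values were seen.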

Additional observations from a re-analysis of the deposited data

How the results depend on the processing

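With fewer libraries or no filter on low values the number of genes called changed more than the members did. For WT dpc16 against NP, 15 genes were called, 9 without the filter and 5 to 15 when 1 library was left out. For Tbx3 cKO against WT dpc16, 247 genes were called, 87 without the filter, 163 with these 6 libraries alone and 41 to 406 with 1 library left out. For Tbx3 cKO against NP the counts were 651, 314, 168 and 118 to 736 in the same order. Called members stayed at 0 in the first 2 comparisons under every alternative run and were 0 to 1 in Tbx3 cKO against NP with 1 library left out. The members' median log2 difference then ranged from -1.12 to -0.29 for WT dpc16 against NP, from -0.11 to 0.63 for Tbx3 cKO against WT dpc16 and from -0.76 to -0.13 for Tbx3 cKO against NP. Of 510 recomputed values for single genes, 496 kept direction and call and 14 changed direction. Many of these could not change direction. The filters, the replicate block, the fit on the 6 libraries compared and leaving out a library of the group not compared do not alter a gene's difference. With 1 library left out, the WT dpc16 minus NP difference ranged from -0.25 to 0.040 for Ckap5, -0.28 to 0.11 for Hmgb2, -0.41 to 0.24 for Ndc80 (0.080 with quantile normalization) and -0.089 to 0.25 for Pttg1. Tbx3 cKO minus NP ranged from -0.13 to 0.56 for Anln and -0.021 to 0.61 for Dlgap5. The cause was not tested.

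In single cells, the 50 members summed to 2399.9, 2009, 2309 and 2521 CPM (NP, dpc16, dpp6, dpp40) at no more than 5% mitochondrial UMIs and to 3443, 2965, 3315 and 3582 without the 50 most abundant genes. The mitosis class held 26.3%, 24.7%, 24.8% and 26.1% of cells with at least 1 gene, 5.86%, 4.27%, 4.74% and 5.24% with at least 3, 6.56%, 4.87%, 5.23% and 6.06% at 2000 UMIs, and 14.3%, 11.7%, 12.9% and 16.2% without thinning, lowest at dpc16 each time. A replicate block by the number in the column headings, which are not matched to the titles, was added after seeing the data. It called 10, 202 and 553 genes (WT dpc16 against NP, Tbx3 cKO against WT dpc16, Tbx3 cKO against NP). With only the 6 libraries compared it called 8, 446 and 120, and it called 0 members each time. Each number holds 1 library of every group, so the block cannot change a member's difference or its direction. Deviations from the group means of same-numbered libraries correlated across genes at 0.31, 0.069 and 0.36 between Tbx3 cKO and WT dpc16. Libraries of different numbers in these 2 groups correlated at -0.335 to 0.091. For same numbers the values were -0.067, -0.071 and -0.21 between WT dpc16 and NP, and -0.043, 0.039 and -0.074 between Tbx3 cKO and NP. The main fit does not pair libraries, and whether a number marks a batch shared by Tbx3 cKO and WT dpc16 libraries is not known. Each Tbx3 cKO library correlated best with the WT dpc16 library of its number, and WT dpc16 library 2 did not in turn. Depth limits the sparsest members, as Bub1 with 12 UMIs in the rest, and 1 library a state allows no test between states.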
